A study of Mus musculus with 30 samples.

Results

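Cd14, the Toll-like receptor genes Tlr2, Tlr3, Tlr4 and Tlr7, their relatives Ly86 and Cd180, the adaptor Myd88 and the inhibitor Nfkbia were followed across 6 diet groups of mice. These 9 genes were taken by symbol from the deposited table of 21412 genes, and all 9 had a row there and passed the filter on low values. The set was chosen by the difference between the high dose and the control in these data, in which Cd14 stood far above the control, together with genes of the same pathway. What is given below for high dose against control therefore describes the choice, and no test is read from it.

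The mice were males of the inbred BALB/c strain, 2 to 3 weeks old on arrival, and 1 library was made from the hippocampus of each of 30 mice. Ctr mice were fed an unspiked diet, and LD and HD mice a diet with 0.28 mg or 5 mg methylmercury (MeHg) per kg for 11 weeks, with 5 mice in each group. Se_Ctr, Se_LD and Se_HD mice, again 5 in each, received selenium with no, low or high mercury, and the sources used here give neither the amount of selenium nor the mercury dose of these 3 groups in figures. All values are deposited read counts divided by a size factor for each library, called normalized counts here, and the libraries are named by the number in their sample labels.

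Toll-like receptors are sensors of microbial and damage-related molecules, and in the brain they are best known from microglia, the resident macrophages. CD14 is a lipid-anchored co-receptor that passes lipopolysaccharide to the complex of TLR4 and MD-2 and also serves other receptors of the family. Most of the family signals through MYD88 to nuclear factor kappaB, which is held in the cytoplasm by the product of Nfkbia, while TLR3 signals through another adaptor.

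Each library held from 5768208 to 11510521 reads that fell on genes, with the lowest group median in Ctr (7119788) and the highest in HD (10159514). All 5 markers listed for hippocampal neurons (Neurod6, Rbfox3, Slc17a7, Prox1 and Camk2a) were present in every group. Their summed level was 30831 to 68323 normalized counts per library. No other brain region is among the libraries, so their presence does not test the tissue label. The summed level of 7 microglia markers (Aif1, Cx3cr1, P2ry12, Tmem119, Csf1r, C1qa and Trem2) was 2098 to 2328 in the Ctr libraries and 2622 to 5266 in the HD libraries. In Se_HD it was 2172 to 2555, against 1971 to 2574 in Se_Ctr. Library 21 (5266) and library 9 (5010.1) stood above the other HD libraries, and the HD differences of the 9 genes and the counts of the main lists are given below with and without these 2 libraries. Library 21 also had the lowest neuron markers of all HD libraries, at 0.663 times the Ctr mean against 0.990 to 1.08 in the other 4, and its astrocyte markers were at 3.77 times the Ctr mean.

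To compare levels between genes, normalized counts were divided by the exon length of each gene in kb. In Ctr mice Nfkbia had the highest level per kb (79.1 ± 30.1, SD, n = 5), followed by Ly86 (58.5 ± 19.5) and Tlr3 (40.3 ± 3.11). The other 6 genes lay far lower, from Myd88 (8.26 ± 1.14) through Cd14 (6.98 ± 4.96), Tlr7 (5.92 ± 1.185), Tlr2 (4.24 ± 1.51) and Tlr4 (4.08 ± 1.30) to Cd180 (1.96 ± 1.32). Neighbours in this order overlapped within 1 SD, with the exception of Tlr3 and Myd88. In HD mice the level per kb of Cd14 was 36.9 ± 16.5, close to that of Tlr3 (46.3 ± 14.8), and Ly86 came first at 188 ± 169.

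Cd14 (ENSMUSG00000051439, on chromosome 18) had normalized counts of 7.24, 3.84, 22.1, 16.1 and 5.63 in the Ctr libraries. In the HD libraries the values were 45.8, 83.3, 47.1, 86.5 and 27.0. The lowest HD mouse was thus above the highest Ctr mouse, and the difference on the scale of log2 (normalized count + 1) was 2.42 (SE 0.39). The control values rest on 3 to 17 reads per library and those of HD on 31 to 106. In Ctr the variance between mice was 4.16 times that of counting alone and in HD 13.2 times. In bulk tissue, a change in the number of cells of a type and a change in RNA per cell cannot be told apart. This holds for every gene below.

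With selenium, Cd14 had 19.9, 12.3, 17.3, 14.1 and 13.4 normalized counts in Se_Ctr. The Se_HD values were 13.5, 16.0, 20.0, 19.8 and 25.0, and the groups overlapped in most of their range. The difference was 0.27 on the log2 scale (95% interval -0.29 to 0.83), which limma did not find significant (p = 0.329, adjusted p = 0.9996), and the exact two-sided permutation test of 5 mice against 5 gave p = 0.190. The smallest p this test can give is 0.00794. No test of the difference between the diets is given, since HD served to choose Cd14. Set beside each other, all 5 Se_HD values were below all 5 HD values of Cd14 (as for 0.903% of all genes), and the log2 difference of Se_HD against HD was -1.48 (SE 0.35).

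**Figure D1:**
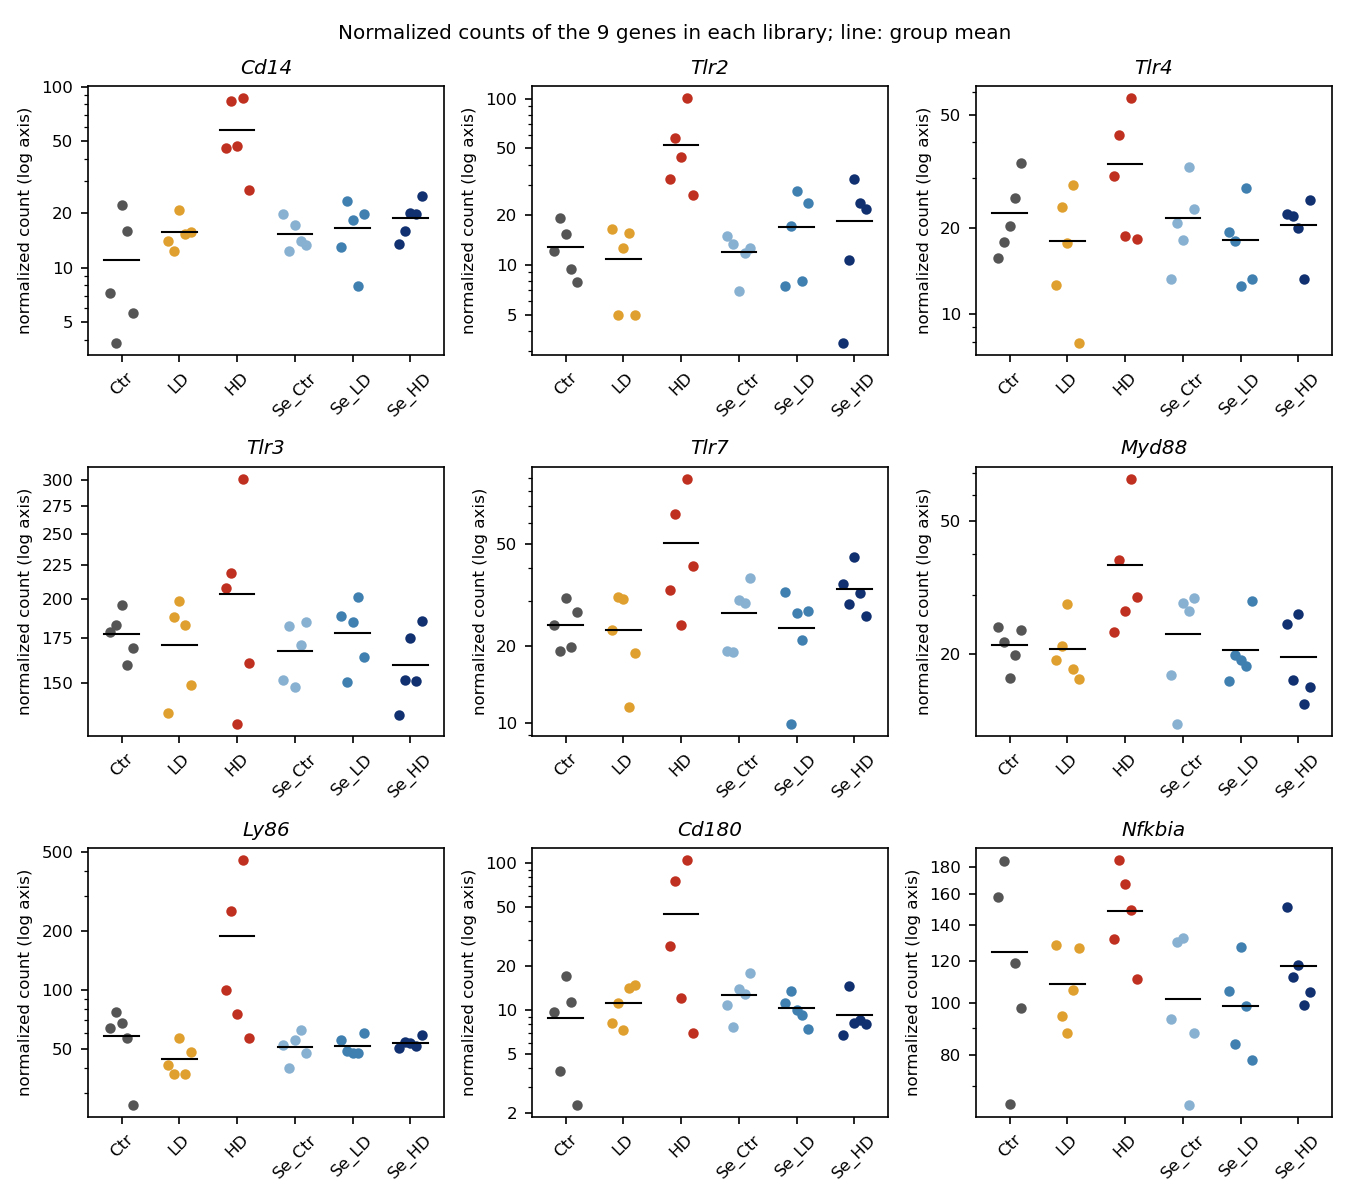
Normalized counts (log axis) of the 9 genes in each of 30 libraries, by diet group; each point is 1 mouse and the line is the group mean. The 5 HD points of Cd14 (27.0 to 86.5) and of Tlr2 (26.2 to 100.4) lie above all 5 Ctr points, while the other genes overlap between these groups.

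Tlr2 (ENSMUSG00000027995, chr3:83640195-83645689 on the minus strand of NCBIM37) encodes the receptor for bacterial lipoproteins. Its normalized counts were 12.1, 19.2, 15.3, 9.45 and 7.89 in Ctr and 33.0, 57.5, 44.4, 100.4 and 26.2 in HD. These groups did not overlap either, and the log2 difference was 1.86 (SE 0.39). Of 20031 genes tested, 0.978% had all 5 HD mice above all 5 Ctr mice, and Cd14 and Tlr2 were the 2 of 9 genes described here that did. In Se_HD the Tlr2 values were 3.37, 10.7, 32.7, 23.6 and 21.6, against 14.9, 13.3, 6.92, 11.7 and 12.5 in Se_Ctr. Se_HD held both the lowest and the highest of these 10 values, and its variance was 7.32 times that of counting. The log2 difference was 0.33 (95% interval -0.62 to 1.27; limma p = 0.484; exact permutation p = 0.595).

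Because Tlr2 and Nfkbia are textbook targets of nuclear factor kappaB, the promoter windows of the 9 genes were searched on both strands for the kappaB consensus. RefSeq windows of 250 bases before to 50 after the transcription start (GRCm38.p6, a later build than that of the gene positions) were found for 6 of the 9 genes. The consensus was found in the windows of Tlr2, Tlr3 and Nfkbia, and no match was found in those of Myd88, Ly86 and Cd180, where 8.459% of 32851 windows hold it. The motif GAGGAA, part of the site bound by the myeloid factor PU.1, was searched on both strands as well, and none of the 6 genes had it, against 28.276% of all windows. The windows with a match are shown 5′ to 3′ on the strand of the gene, with the kappaB matches in capitals.
Tlr2, chr3:83841559-83841858, minus strand: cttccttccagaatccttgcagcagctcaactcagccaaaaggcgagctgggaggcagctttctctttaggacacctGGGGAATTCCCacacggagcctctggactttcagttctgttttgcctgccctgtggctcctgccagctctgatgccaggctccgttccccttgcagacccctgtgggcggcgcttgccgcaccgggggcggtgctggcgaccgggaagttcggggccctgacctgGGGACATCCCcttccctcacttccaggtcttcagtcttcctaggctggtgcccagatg
Tlr3, chr8:45410331-45410630, minus strand: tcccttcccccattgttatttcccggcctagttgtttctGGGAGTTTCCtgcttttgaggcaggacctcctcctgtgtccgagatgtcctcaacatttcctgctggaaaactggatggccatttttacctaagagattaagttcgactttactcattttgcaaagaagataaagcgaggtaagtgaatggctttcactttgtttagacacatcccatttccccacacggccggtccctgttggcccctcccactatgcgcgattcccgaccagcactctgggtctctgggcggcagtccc
Nfkbia, chr12:55492598-55492897, minus strand: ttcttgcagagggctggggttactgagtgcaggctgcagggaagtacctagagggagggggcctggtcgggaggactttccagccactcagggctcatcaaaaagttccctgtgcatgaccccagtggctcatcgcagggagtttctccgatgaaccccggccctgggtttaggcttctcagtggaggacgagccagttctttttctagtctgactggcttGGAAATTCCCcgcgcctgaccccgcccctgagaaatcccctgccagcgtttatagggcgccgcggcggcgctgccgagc
The first match of Tlr2 runs from -173 to -163 before the start, where overlapping matches on both strands were counted as 1 place, and the second from -8 to 2. The match of Tlr3 lies at -211 to -202 and that of Nfkbia, on the strand opposite to the gene, at -29 to -20. A match is a description of the letters in these windows. Nothing is drawn from it, or from its absence, about the factor.

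Tlr4 (ENSMUSG00000039005, chr4:66488618-66591318, plus strand) encodes the lipopolysaccharide receptor. Its normalized counts were 15.7, 17.9, 20.4, 25.5 and 33.8 in Ctr and 30.5, 42.5, 18.8, 57.1 and 18.3 in HD. The groups overlapped, with 3 of 5 HD mice inside the Ctr range, and the log2 difference was 0.46 (SE 0.36). In Se_HD it was -0.04 against Se_Ctr (95% interval -0.59 to 0.50, limma p = 0.868, exact permutation p = 0.889). Ly96, which encodes the MD-2 partner of TLR4, had 12.1, 23.0, 8.51, 24.6 and 29.3 normalized counts in Ctr and 16.9, 14.2, 9.42, 31.8 and 15.7 in HD, with a log2 difference of -0.12. Both Tlr4 and Ly96 overlapped between these groups. Cd14 did not, but it was picked on that difference, so nothing is read from setting them side by side.

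Tlr3 and Tlr7 encode the endosomal receptors for double-stranded and single-stranded RNA. Tlr3 (ENSMUSG00000031639, chr8:46481019-46495962, minus strand) had 179, 183, 196, 159.7 and 169 normalized counts in Ctr and 207, 218, 130.5, 301 and 161 in HD. The mean of Tlr3 changed little, with a log2 difference of 0.14 (SE 0.17), but the spread was wider, since the variance was 0.844 times that of counting in Ctr and 21.1 times in HD. Without library 21, the highest, the variance of Tlr3 in HD was 2.52 times smaller and 8.75 times that of counting, and the log2 difference was -0.01. In the selenium groups the log2 difference of Tlr3 was -0.07 (95% interval -0.29 to 0.15, limma p = 0.508, exact permutation p = 0.532). Tlr7 (ENSMUSG00000044583, chrX:163742861-163768490, minus strand) had 24.1, 19.2, 30.6, 19.8 and 27.0 normalized counts in Ctr and 33.0, 65.0, 24.2, 89.0 and 41.0 in HD. Its log2 difference was 0.90 (SE 0.32), with 1 HD mouse inside the Ctr range. In Se_HD Tlr7 was between 26.2 and 44.5, against 19.0 to 36.7 in Se_Ctr, with a log2 difference of 0.32 (95% interval -0.24 to 0.89, limma p = 0.245, exact permutation p = 0.198).

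Ly86 and Cd180 encode MD-1 and RP105, a complex that resembles MD-2 and TLR4 and is known as a regulator of lipopolysaccharide responses. Ly86 (ENSMUSG00000021423, chr13:37437214-37510905, plus strand) had 64.0, 76.7, 68.1, 56.7 and 25.9 normalized counts in Ctr and 99.7, 249.96, 75.3, 455 and 56.7 in HD. Libraries 9 and 21 were 4.29 and 7.81 times the Ctr mean of Ly86, library 27 was 0.973 times, and the variance in HD was 164 times that of counting. In Se_HD, by contrast, the values were 50.5, 54.1, 53.6, 51.9 and 59.2, a variance of 0.181 times that of counting, and the log2 difference from Se_Ctr was 0.08 (95% interval -0.21 to 0.37, limma p = 0.572, exact permutation p = 0.540). This was the narrowest group of Ly86.

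Cd180 (ENSMUSG00000021624, chr13:103483638-103529709, plus strand) had 9.66, 3.84, 17.0, 11.3 and 2.25 normalized counts in Ctr and 27.3, 75.0, 12.1, 104 and 6.98 in HD. Libraries 9 and 21 were 8.50 and 11.8 times the Ctr mean, higher multiples than those of Cd14 in the same libraries (7.59 and 7.88), but 2 HD mice lay inside the Ctr range. In Se_HD the values were 6.74, 14.5, 8.17, 8.50 and 7.97, with a log2 difference of -0.41 from Se_Ctr (95% interval -0.98 to 0.15, limma p = 0.143, exact permutation p = 0.151). Of the gene's 4509 exon bases, 182 are shared with Mast4 on the opposite strand. The library kit keeps the strand, but the strand setting of the counting is not given in the sources used here.

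Myd88 (ENSMUSG00000032508, chr9:119245052-119250529, minus strand), the shared adaptor, had 24.1, 21.7, 17.0, 19.8 and 23.7 normalized counts in Ctr and 23.3, 38.3, 26.9, 66.9 and 29.7 in HD. All but 1 HD mouse were above the Ctr range, with a log2 difference of 0.68 (SE 0.27), and library 21 was 3.14 times the Ctr mean. In Se_HD it was -0.19 against Se_Ctr (95% interval -0.73 to 0.35, limma p = 0.470, exact permutation p = 0.524). Myd88 shares 67 of 2576 exon bases with Acaa1a on the opposite strand.

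Nfkbia (ENSMUSG00000021025, chr12:56590398-56593634, minus strand) encodes the inhibitor IkappaB-alpha and is induced by the factor it restrains. It had 158, 184, 64.7, 119 and 98.0 normalized counts in Ctr and 132, 185, 167, 149 and 111 in HD. The groups overlapped, with 2 of 5 Ctr mice below the HD range, and the log2 difference was 0.32 (SE 0.22). In Se_HD it was 0.24 against Se_Ctr (95% interval -0.13 to 0.60, limma p = 0.198, exact permutation p = 0.325).

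**Figure D2:**
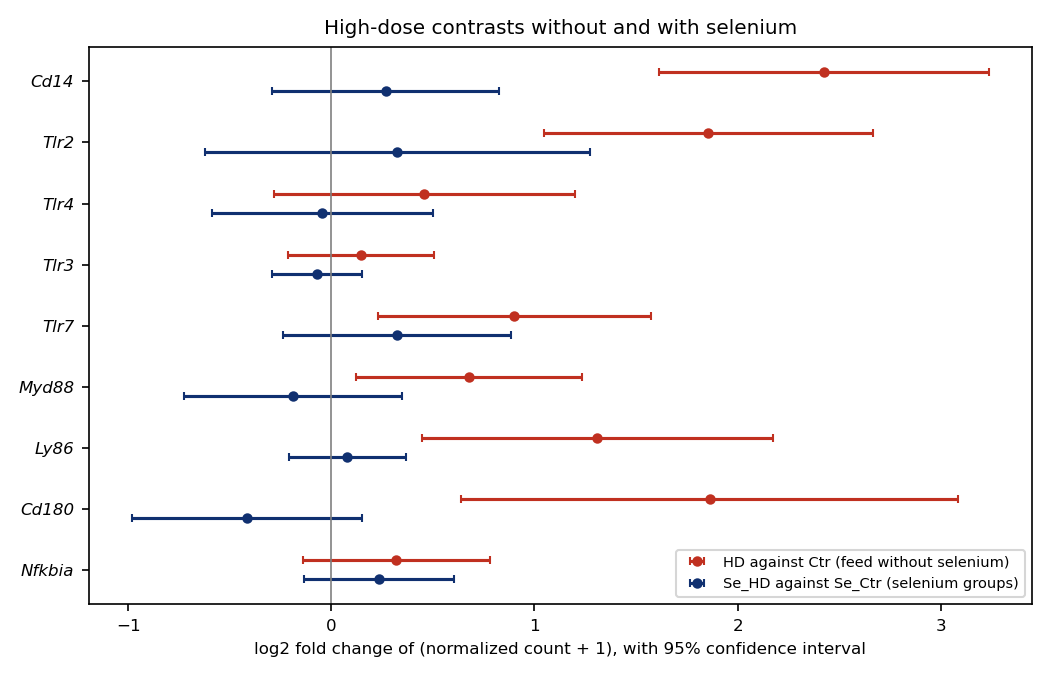
Log2 fold change of (normalized count + 1) with its 95% confidence interval for the 9 genes, for HD against Ctr and for Se_HD against Se_Ctr, from limma fits of 15 libraries each. The Cd14 point is at 2.42 without selenium and at 0.27 with selenium, and all 9 selenium intervals include 0.

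Each fit held 3 groups within a diet, or all 6 for contrasts between the diets. A gene was counted as changed where the F test over these groups and the contrast itself both had an unadjusted p under 0.05. In HD against Ctr this holds for 6 of the 9 genes, all higher (Cd14, Tlr2, Cd180, Ly86, Tlr7 and Myd88), against 5.09% of all genes tested, and 3.36% in that direction. Since this contrast chose the set, nothing is read from that count. Library 21 was the highest of the HD libraries for 8 of the 9 genes and library 9 was among the top 2 for all 9, while library 27 was lowest for 6. A setting without libraries 9 and 21 was chosen after the values were seen. There the count was 2 of 9 (Cd14 and Tlr2), against 3.09% of all genes, and the log2 differences of these 2 were 1.98 and 1.40. Those of Cd180, Ly86, Tlr7 and Myd88 were then 0.81, 0.45, 0.41 and 0.31, and those of Nfkbia, Tlr4 and Tlr3 were 0.20, 0.01 and -0.11. With library 9 alone left out, Cd180 (1.53) and Myd88 (0.64) no longer counted, and with library 21 alone left out the same 2 genes did not (1.41 and 0.44). In all of these but Myd88 without library 21 the contrast kept an unadjusted p under 0.05, and it was the F test over the 3 groups that no longer passed.

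**Figure D3:**
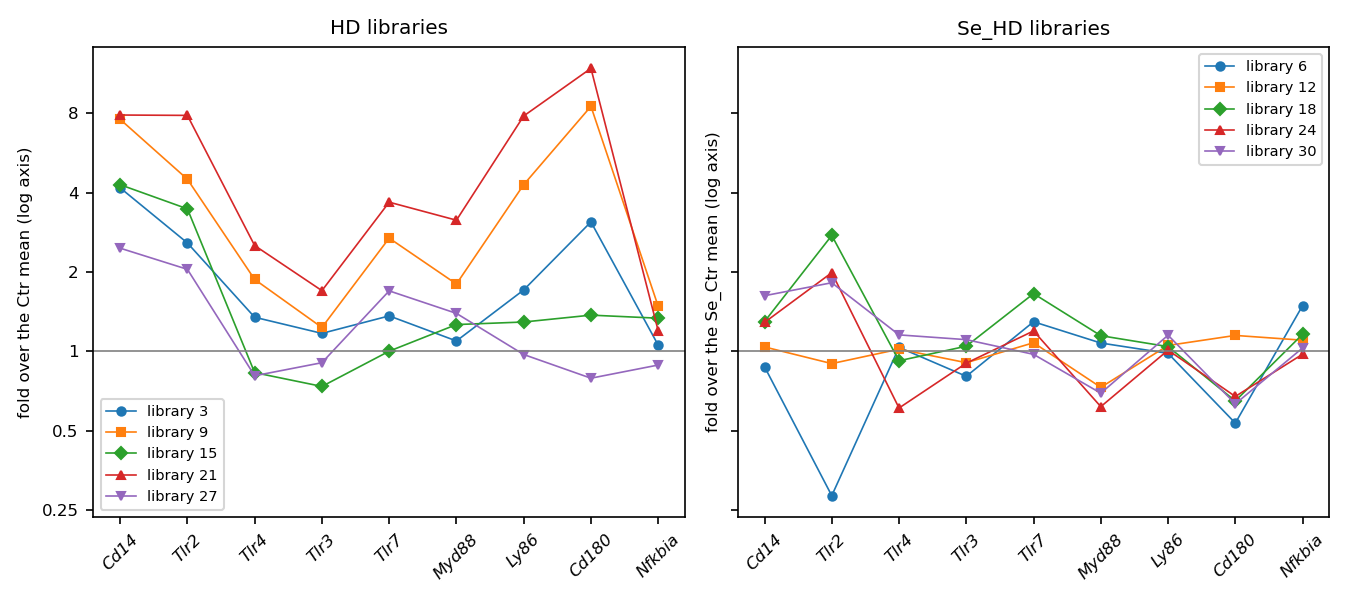
Fold of each HD library over the Ctr mean (left) and of each Se_HD library over the Se_Ctr mean (right) for the 9 genes, on a log axis; each line is 1 mouse. In HD the lines of libraries 9 and 21 run above the other 3 for most genes, with Cd180 at 8.50 and 11.8, while no Se_HD library is highest for more than 4 of the 9.

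The markers of microglia moved with these libraries: 7 of 7 counted as changed in HD against Ctr, all higher, and 0 of 7 in Se_HD against Se_Ctr. The astrocyte markers, with a summed level of 13971 to 16240 in Ctr and 17664 to 54912 in HD, had 3 of 5 higher. Without libraries 9 and 21 the counts were 4 of 7 and 1 of 5, all higher, where 3.09% of all genes counted. The markers of monocytes and neutrophils summed to 70.3 to 115 in Ctr and 113 to 251 in HD, and 1 of the 6 tested counted as changed, Csf3r, a receptor that microglia also express (46.3 to 73.7 normalized counts in Ctr and 85.5 to 198 in HD). No marker of border macrophages (4 tested), endothelium (4), hippocampal neurons (5), choroid plexus (5), erythrocytes (3) or B cells (1) counted as changed, and for T cells none passed the filter. The choroid plexus markers varied widely between mice, with sums of 715 to 30039 in Ctr, 6755 to 28164 in HD, 5877 to 20255 in Se_Ctr and 8929 to 32858 in Se_HD. All 5 of them were above 0 on the log2 scale both in HD against Ctr (median 1.54) and in Se_HD against Se_Ctr (median 0.74), with overlapping groups. Without libraries 9 and 21 their median in HD against Ctr was 2.15, and 1 of 5, Folr1, counted as higher. In Se_HD against Se_Ctr 1 of 5 astrocyte markers counted as changed, Gfap, with 1596 to 2165 normalized counts in Se_Ctr and 2264 to 2909 in Se_HD (log2 difference 0.51, limma's adjusted p = 0.728). So did 1 of 4 endothelial markers, Flt1 (0.16), and 1 of 6 of monocytes and neutrophils, Ccr2 (1.28), both with a limma adjusted p of 0.9996. The B cell list, relevant since B cells carry RP105, summed to at most 6.67 in HD over Cd79a and Cd79b. What part the number or state of these cells had in the values of the 9 genes was not tested.

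Set against the summed microglia markers, a scale chosen after the values were seen, Cd14 was 1.79 to 9.67 per 1000 marker counts in Ctr and 10.3 to 16.6 in HD, and Tlr2 was 3.68 to 8.94 in Ctr and 9.20 to 19.1 in HD, so that neither overlapped, by narrow margins. Of all genes tested, 0.11% had all 5 HD mice above all 5 Ctr mice on this scale, and nothing is read from it since HD chose the set. Tlr3 was 76.1 to 85.5 in Ctr and 43.6 to 61.2 in HD. All 5 HD mice were thus below all 5 Ctr mice for Tlr3, as for 23.2% of all genes, and the marker sum itself was higher in every HD library than in any Ctr library. The other 6 genes overlapped on this scale, with HD means of 1.61 (Ly86), 2.49 (Cd180), 1.15 (Tlr7), 0.983 (Myd88), 0.798 (Tlr4) and 0.713 (Nfkbia) times those of Ctr. Without libraries 9 and 21 the ratio of Ly86 was 0.957 and that of Cd180 1.22, those of Cd14 and Tlr2 were 2.66 and 2.00, and those of the other 5 genes lay between 0.682 (Tlr3) and 1.01 (Tlr7). In Se_HD, Cd14 was 5.67 to 9.80 per 1000 marker counts, inside the range of 5.20 to 10.1 in Se_Ctr.

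**Figure D4:**
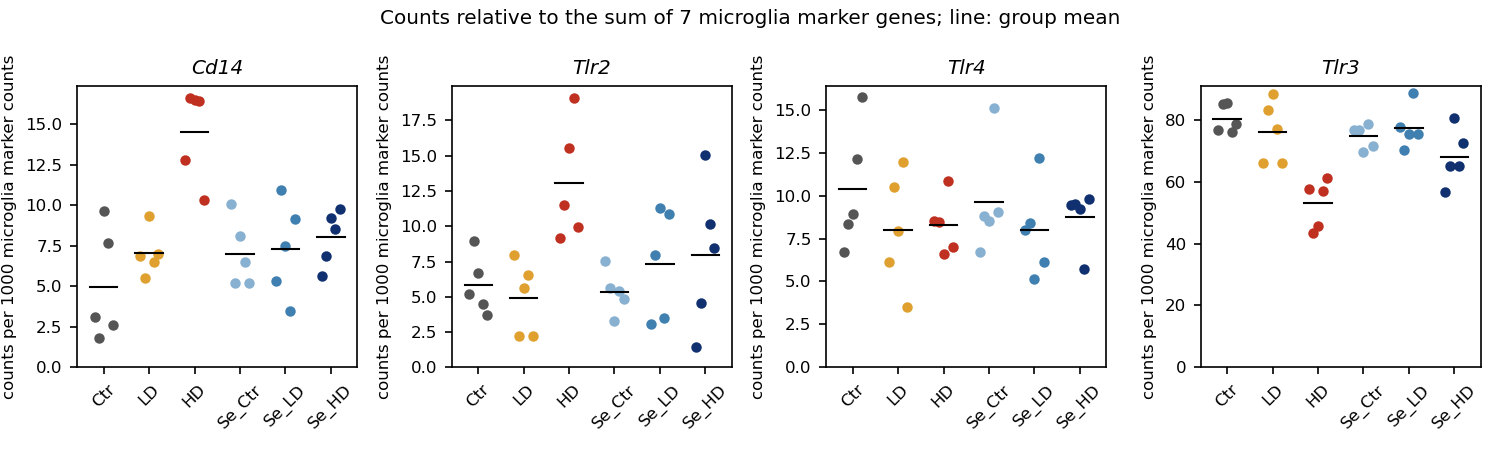
Normalized counts of Cd14, Tlr2, Tlr4 and Tlr3 per 1000 summed normalized counts of 7 microglia markers, by diet group; each point is 1 mouse and the line is the group mean. The HD points of Cd14 and Tlr2 lie above those of Ctr, those of Tlr4 overlap and those of Tlr3 lie below, as for 0.11% (above) and 23.2% (below) of all genes.

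In the selenium groups, 0 of 9 genes counted as changed with the high dose (Se_HD against Se_Ctr), where 2.06% of 19679 genes did. With limma, edgeR and DESeq2 the count was 0, and it was also 0 at an unadjusted contrast p under 0.05 alone, which 4.19% of all genes had. The log2 differences ran from -0.41 (Cd180) to 0.33 (Tlr2) and 5 of 9 were above 0. Against HD, the 9 genes were all lower in Se_HD on the log2 scale, by -0.30 (Tlr3) to -1.60 (Tlr2). The cell markers moved with them in that contrast, with 7 of 7 microglia markers (median log2 difference -0.72) and 5 of 5 astrocyte markers (median -0.58) below 0. It holds the HD mice that chose the set, so no call is read from it.

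The low dose gave no change that counted. In LD against Ctr it was 0 of 9 genes, against 1.46% of all genes, and in Se_LD against Se_Ctr again 0 of 9, against 1.46%. At an unadjusted contrast p under 0.05 alone it was also 0 of 9 in both, against 3.01% and 3.31% of all genes, and edgeR and DESeq2 gave 0 as well. Cd14 had 14.1, 12.4, 20.9, 15.5 and 15.8 normalized counts in LD, which all lay inside the Ctr range but above the Ctr median. The log2 difference of LD against Ctr was 0.71 (95% interval -0.10 to 1.52, limma p = 0.0829, adjusted p = 0.999, exact permutation p = 0.159). This contrast uses the Ctr mice that served to choose the set, and its fit holds the HD mice. Its p-values are therefore not free of that choice. In Se_LD Cd14 ranged from 7.91 to 23.5, with a log2 difference of 0.03 from Se_Ctr (95% interval -0.53 to 0.59, limma p = 0.907, exact permutation p = 0.905). The other 8 genes had limma p-values of at least 0.291 in LD and 0.372 in Se_LD.

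Selenium without mercury was compared in Se_Ctr against Ctr, and 0 of 9 genes counted as changed with limma, edgeR or DESeq2, against 1.3% of all genes with limma. At an unadjusted contrast p under 0.05 alone it was 0 of 9 as well, against 4.0%. The log2 difference of Cd14 was 0.68 (95% interval -0.02 to 1.39, limma p = 0.0580, adjusted p = 1, exact permutation p = 0.159). All 5 Se_Ctr values of Cd14 lay inside the wide Ctr range of 3.84 to 22.1, in which libraries 13 and 19 were high and the other 3 low. The Ctr mice also served to choose the set, and the fit holds the HD mice. The p-values of Se_Ctr against Ctr are therefore not free of that choice either. Without library 13 the log2 difference of Cd14 was 0.98 (limma's adjusted p = 0.965) and without library 19 it was 0.87 (limma's adjusted p = 1), and Cd14 then counted as changed at unadjusted p. The same held in LD against Ctr, with 1.01 and 0.90 (limma's adjusted p = 0.9996 and 0.999). Without library 13, Nfkbia also counted as lower in Se_Ctr than in Ctr (-0.46, limma's adjusted p = 0.970).

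The other genes of the pathway were taken from 8 lists of 74 genes, of which 72 had a row. In HD against Ctr 12 of 70 tested counted as changed, all higher, against 5.09% of all genes (3.36% higher), with a median log2 difference of 0.19, against 0.01 over all genes. Without libraries 9 and 21 it was 6 of 68 (8.82%, against 3.09% of all genes in that setting). Of them 5 were higher (Ccl3, Ccl4, Il1b, Irf8 and Lbp) and Nfkbib was lower. These counts, too, describe the contrast that chose the set. The genes that the pathway induces held 7 of the 12 that counted with all libraries. Of the induced genes, 12 were tested in this fit, 10 without libraries 9 and 21 and 9 in the selenium fit. The filter sums over all libraries of a fit, so that a gene with few reads elsewhere can pass through HD. The chemokine genes Ccl3 (2.62 to 50.8 normalized counts in HD and at most 3.84 in Ctr) and Ccl4 (0.872 to 28.3 in HD, with 0 reads in every Ctr library, which allows up to 3 reads each) were at low counts. Il1b, for the cytokine interleukin-1 beta, was 3.21 to 17.1 in HD, and Cxcl10 reached 103 in library 21 with 0 in library 15. Il1a, Icam1 and Vcam1 were the others, with HD levels 2.27, 2.23 and 1.51 times those of Ctr on the scale of (normalized count + 1). Tnf reached 8.98 normalized counts in library 21 and was lower in all others.

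Of the other receptors 1 of 6 counted as changed in HD against Ctr (Tlr13, log2 difference 0.84). Of the chaperones it was 1 of 4, Unc93b1, which carries endosomal receptors (0.79). For Unc93b1, 4 HD mice were above all Ctr mice and 1 was below all of them, and without libraries 9 and 21 it was 0 of 4. Of the transcription factors 2 of 9 counted (Irf5 at 0.80 and Irf8 at 1.13). Irf8 was 40.2 to 105 in HD and 20.5 to 30.6 in Ctr, without overlap. None of the 5 adaptors, 15 kinases and ubiquitin ligases and 6 genes of ligand delivery counted as changed, and of 13 inhibitors it was 1, Bcl3 (log2 difference 1.73), at 19.6 normalized counts or fewer. The median of the inhibitors was -0.08, with 4 of 13 above 0. Tnip1, whose product restrains the pathway together with A20, had all 5 HD mice (127 to 147 normalized counts) below all 5 Ctr mice (148 to 169), as had 0.734% of all genes, with a log2 difference of -0.24, but did not count as changed. For Nfkbib, which encodes a relative of IkappaB-alpha, 4 of 5 HD mice were below the Ctr range, with a log2 difference of -0.49. The median of the kinases was 0.04.

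In Se_HD against Se_Ctr 2 of 68 genes of these lists (2.94%) counted as changed, a share near the 2.06% of all genes, with a median of 0.01 against -0.01 over all genes. Vcam1, which encodes an adhesion molecule of vessels and astrocytes, went from 281, 284, 302, 249.7 and 277 to 360.3, 347, 330.5, 412 and 429 normalized counts, with no overlap (0.478% of all genes had all 5 Se_HD mice above all 5 of Se_Ctr) and a log2 difference of 0.42 (95% interval 0.22 to 0.63, limma's adjusted p = 0.948). Il1b was lower, with 0 reads in 4 of 5 Se_HD mice and 0.864 to 4.96 normalized counts in Se_Ctr (log2 difference -1.24, limma's adjusted p = 0.9996). In LD against Ctr 2 of 70 counted as higher (2.86%, against 1.46% of all genes changed), Il1b (1.30) and Ptgs2 (0.56). Il1b was at low counts there, with a mean of 2.94 normalized counts in LD and 0.936 in Ctr. In Se_LD against Se_Ctr 1 of 68 counted as lower (1.47%, against 1.46%), Cd36 (-0.65), and in Se_Ctr against Ctr 0 of 72 counted as changed, against 1.3% of all genes, with 3 at an unadjusted contrast p under 0.05. The adjusted limma p of each of these was at least 0.999.

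**Figure D5:**
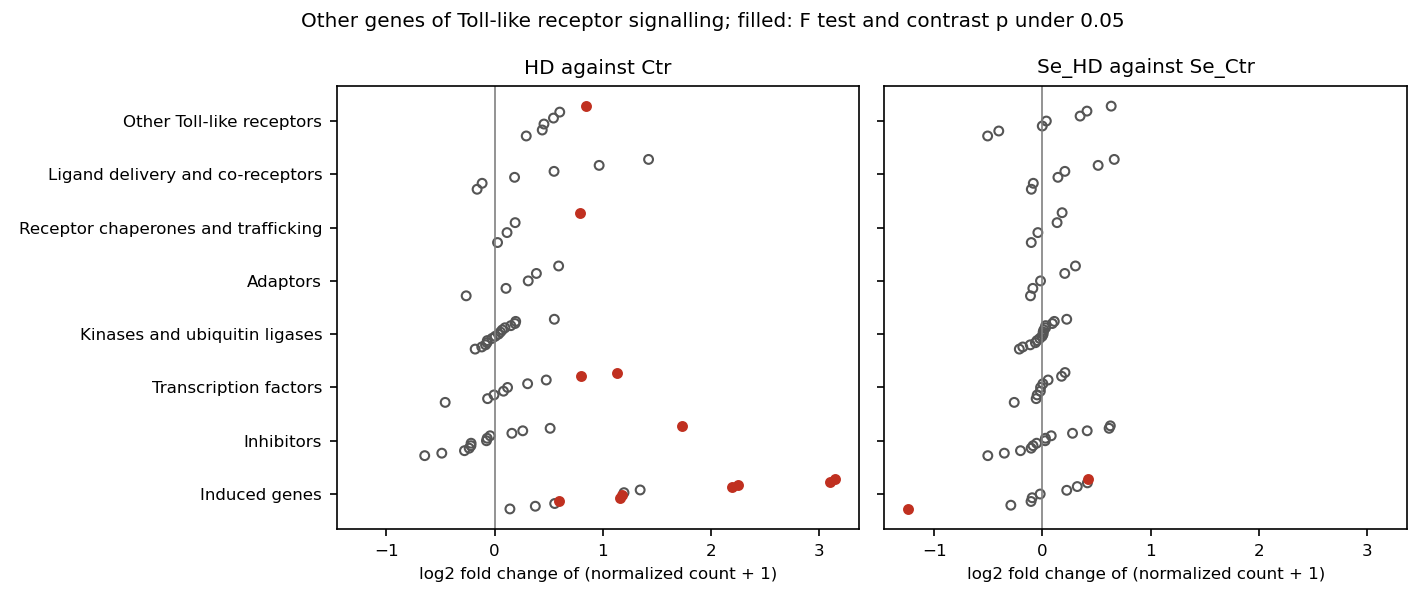
Log2 fold change of (normalized count + 1) of the other genes of Toll-like receptor signalling in HD against Ctr (left) and Se_HD against Se_Ctr (right), 1 point per gene, by list; filled points had an unadjusted p under 0.05 in the F test and the contrast. Without selenium 12 filled points lie to the right of 0 and 7 of them are induced genes, and with selenium there are 2. The genes tested differ between the panels, with 70 on the left and 68 on the right, and 12 and 9 of the induced genes.

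The genes most like Cd14 over the 30 libraries, by the Pearson correlation of log2 values among the 14296 genes that averaged 10 or more normalized counts, were Tbxas1 (0.893), Cd84 (0.876), Clec5a (0.855), Mpeg1 (0.848) and Ctsh (0.833). After the group means were subtracted they were Tbxas1 (0.773), Adamts5 (0.735), Gcnt1 (0.703), Nbas (0.701) and Csf2rb (0.696). Only Tbxas1 was in both sets of 5. Over the 25 libraries without HD, again with group means subtracted, the first 3 were Fam154b (0.791), Gmeb1 (0.751) and Gm17396 (0.739), and Tbxas1 was at rank 10 (0.693). Among the 9 genes themselves, the median correlation over 36 pairs was 0.50 across all libraries and 0.29 after subtracting group means. Without the HD libraries it was -0.05, with 14 of 36 pairs above 0. These values share libraries and depth and are given as descriptions.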

How the data were processed

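RNA from the hippocampus of 30 mice was sequenced as single-end reads of 75 bases. The authors trimmed the reads with Trim Galore 0.4.2, mapped them with HISAT2 2.0.4 to NCBIM37 and assigned them to genes with featureCounts. The deposited values are a signal: read counts that the authors divided by DESeq2 size factors, once genes with a sum under 10 reads had been removed. Every value was within 0.01 of a whole read times 1 factor per library, so that reads could be recovered. A symbol was found in the NCBIM37 annotation for 21326 of 21412 identifiers, and promoter windows came from RefSeq on GRCm38.p6.

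Values were transformed as log2 (normalized count + 1) and compared with limma 3.58.1 (R 4.3.3) with a trend. One fit held the 15 libraries without selenium, another the 15 with selenium, and contrasts between the diets used all 30. A gene was tested where its normalized counts summed to 10 or more in the fit, and p-values were adjusted over all genes tested by the method of Benjamini and Hochberg. On this scale the fold change of genes with few counts is understated. Exact two-sided permutation tests were run for single genes. Named are the 9 genes, genes of the pathway lists that counted as changed or bear on a result, and the genes most like Cd14. The genes and lists were chosen with earlier results of these data known. Alternatives were other pseudocounts, filters and normalizations, limma without trend, other libraries in the fit, a block for library sets, the contrast alone, count tests on recovered reads with edgeR 4.0.16 or DESeq2 1.42.0, and leaving out mice. The marker lists were used without 2 of their genes, which are not reported here. The fit functions were also run on simulated counts with known changes, which checks the code and not the results given here. Python 3.11.15 with pandas 2.3.3, numpy 2.4.6 and matplotlib 3.10.9 was used.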

Additional observations from a re-analysis of the deposited data

Results flagged for a closer look

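In 2 of 54 combinations of gene and group 1 library stood far from the other 4, where chance gives about 2.7 (1 in 20). The gap to the next library was compared with the range of the group, with a critical ratio of 0.71 for 5 samples. Myd88 in Se_LD library 29 was at 28.8 normalized counts, against 16.7 to 19.9 in the others (ratio 0.737). Cd180 in Se_HD library 12 was at 14.5, against 6.74 to 8.50 in the others (ratio 0.772). Neither library was highest for more than 2 of the 9 genes in its group. The HD group, in which libraries 9 and 21 were both high, held none of these.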

How the results depend on the processing

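Of 999 values recomputed for single genes, 984 kept their side of the threshold, 8 no longer counted as changed and 7 newly did. Of the 984, 952 also kept their sign and 32 did not, with values of at most 0.11 in size after the change of sign. These 32 counted as changed neither before nor after, and all came from settings that left out 1 or 2 mice. In HD against Ctr only Tlr3 changed sign, to -0.01 without library 21 and -0.11 without libraries 9 and 21. The count of changed genes in HD against Ctr was 6 and stayed at 6 under all 12 other planned settings, edgeR and DESeq2 included. It was between 4 and 6 with 1 mouse left out, and 2 without libraries 9 and 21 together, a setting added after seeing the data. In Se_HD against Se_Ctr and in Se_LD against Se_Ctr it was 0 under all 22 alternatives run. In LD against Ctr it was 1, Cd14, with all 30 libraries in the fit, and between 0 and 1 with 1 mouse left out. In Se_Ctr against Ctr it was 1, Cd14, with quantile normalization, and between 0 and 2 with 1 mouse left out. Both contrasts use the Ctr libraries, where Cd14 rests on 3 to 17 reads each. For Cd14 the log2 difference of HD against Ctr was between 1.68 and 2.72 over all alternatives, and that of Se_HD against Se_Ctr between 0.16 and 0.37, with p from 0.196 to 0.569 and adjusted p from 0.980 to 1. With limma, the pathway lists had 2 genes in LD against Ctr and 1 in Se_LD against Se_Ctr, and with either count test 1 and 0. In HD against Ctr they had 12 with limma, 16 with edgeR, 15 with DESeq2, and 6 with limma without libraries 9 and 21.

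The labels hold no replicate numbers within groups, only library numbers, and the set of 6 consecutive library numbers was tried as a replicate block. Libraries of the same set did not deviate together (median correlation -0.02 over 75 pairs, 19 of them over 0.1, against -0.003 over 300 pairs of different sets), so that the sets were not taken as pairs. With the block the counts were again 6 in HD against Ctr and 0 in the 4 other contrasts, and Cd14 in Se_HD against Se_Ctr was at 0.27 (limma's adjusted p = 0.9995).

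At a mean near 10 normalized counts, as for Cd14, Cd180 and Tlr2 in Ctr, a few reads move a value visibly, and the intervals of these genes leave modest changes undecided. The small p-values in the contrasts without HD mice did not pass adjustment over all genes: the lowest adjusted limma p of any gene was 0.0979 in Se_HD against Se_Ctr and 0.913 in Se_Ctr against Ctr.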
